A study of Mus musculus with 6 samples.

Results

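The 9 genes described here are 5 nuclear receptors for steroid hormones (Esr1, Esr2, Pgr, Nr3c1 and Nr3c2) and 4 genes that glucocorticoids are known to induce (Fkbp5, Tsc22d3, Per1 and Zbtb16). They were taken by name, by matching the NCBI gene numbers of the count tables to mouse symbols. All 9 were found among the 18305 genes of the tables, and all 9 were among the 14581 genes that passed the filter on low counts. RNA was sequenced from cultured cells of the KM mouse strain in 3 groups of 2 libraries, set side by side to ask how far CiLC resemble LC. MEF are fibroblasts grown from embryos of 12.5 or 13.5 days post coitum, at passage 3 to 5. CiLC are fibroblasts of the same origin and passage to which small molecules were given, beginning 24 hours after they were plated. The LC group consists of Leydig cells, the steroid-producing cells between the seminiferous tubules, prepared from testis and used at passage 0 to 1. The labels name neither the small molecules nor any steroid in the medium. They also give no age for the testis donors and leave unstated whether a pair of libraries came from distinct cultures or mice. A p-value here therefore reflects the spread between library pairs, possibly technical only.

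The total per library was 18.4 to 18.9 M estimated reads. Levels are reads per M of the scaled library (CPM, where M is 1e+06), as mean ± SD of the 2 libraries of a group (n = 2 throughout). In LC the steroidogenic markers Star (182 ± 2.93 CPM) and Cyp11a1 (705 ± 17.8 CPM) were abundant, whereas the luteinizing hormone receptor gene Lhcgr had 3 and 2 reads and Cyp17a1 had 0 and 1. The 8 fibroblast markers summed to 31265 to 31889 CPM in MEF, 31897 to 32074 in CiLC and 27180 to 27881 in LC. These sums were mostly Col1a1, Col1a2 and Col3a1, and they hide differences between single markers. Singly, 3 of the 8 were higher and 5 lower in LC than in MEF. Thy1 was at 395 ± 0.825 CPM in MEF and 5.73 ± 0.226 in LC, and Pdgfra at 303 ± 15.3 and 1787 ± 38.1. The 8 macrophage markers were present in every group as well, at 5843 to 5954 CPM in MEF, 9738 to 9913 in CiLC and 3437 to 3759 in LC. In bulk libraries such as these, fewer cells of a type and less RNA per cell cannot be told apart.

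Steroid receptors are transcription factors that are switched on by a small lipid hormone. Without hormone, the glucocorticoid receptor Nr3c1 waits in the cytoplasm with heat shock protein 90 and its co-chaperones, and with hormone it moves to the nucleus, binds inverted repeats in DNA and raises genes such as Fkbp5, Tsc22d3, Per1 and Zbtb16. In the testis, Leydig cells are a target of glucocorticoids and of estrogen, and they carry enzymes that regenerate or inactivate glucocorticoids, which set how much active hormone reaches the receptor. The 4 target genes have other inputs too: Per1 is a clock gene that cyclic AMP also induces, Tsc22d3 is abundant in immune cells, and Zbtb16 marks undifferentiated spermatogonia.

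The start-site regions of 3 of the target genes are shown because these genes share an inducer and yet ran in different directions between the cultures. RefSeq promoter windows of the build GRCm38.p6, from 250 bases before to 50 bases after a start site, were matched for 7 of the 9 members (11 windows), all but Nr3c1 and Zbtb16. The search for members left out the chromosome of Nr3c1. The stretch from position -250 to -141 is printed 5′ to 3′ on the strand of the gene, with position 1 the first transcribed base. Capitals mark the motifs found, which were searched on both strands.
Fkbp5, chr17:28486290-28486399, minus strand: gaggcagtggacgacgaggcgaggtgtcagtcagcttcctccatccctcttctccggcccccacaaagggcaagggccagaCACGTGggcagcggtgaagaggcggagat
Tsc22d3, most upstream of its 3 windows, chrX:140600663-140600772, minus strand: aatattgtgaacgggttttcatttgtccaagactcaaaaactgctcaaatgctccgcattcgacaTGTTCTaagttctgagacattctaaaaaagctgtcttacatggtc
Per1, most upstream of its 2 windows, chr11:69098699-69098808, plus strand: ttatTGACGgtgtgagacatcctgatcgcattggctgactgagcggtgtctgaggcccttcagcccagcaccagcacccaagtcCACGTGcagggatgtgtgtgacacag

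The palindromic glucocorticoid response element, searched as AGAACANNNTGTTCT, was in none of the 11 windows of members and in 0.00913% of all 32851 windows of the table. Its core hexamer AGAACA, which is part of the palindrome and reads TGTTCT on the other strand, was found in a single member window, at position -185 of Tsc22d3, and in 19% of all windows. The E-box CACGTG, which clock proteins bind, lay at -169 in Fkbp5, at -166 in Per1 and at -72 in Esr2 (7.15% of all windows). The core TGACG of the cyclic AMP response element lay at -246 in the printed Per1 window and at -132 in the other Per1 window (20.8% of all windows). It was also at -195 in Esr2 and at -224 in the third Tsc22d3 window. The whole element TGACGTCA, which contains that core, was in none of them (1.79% of all windows), and neither was the estrogen response element, searched as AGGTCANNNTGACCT (0.0213%). These matches describe letters within short windows and were not tied to the expression values.

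Esr1 and Pgr, the estrogen receptor alpha and progesterone receptor genes, were highest in LC, intermediate in CiLC and lowest in MEF. Nr3c1 was the most abundant of the 5 receptors per length in every library and highest in CiLC, Nr3c2 was lowest in LC, and Esr2 stayed near the limit of detection. Among the targets, Fkbp5 and Zbtb16 were highest in LC by a wide margin, Tsc22d3 was lowest there, and Per1 differed little. Between CiLC and MEF, 4 of the 9 genes were called higher and 2 lower, beside 51.6% of all genes tested. Between LC and MEF, 6 were called higher and 2 lower, beside 70.7% of all genes tested. Between CiLC and LC, 3 were called higher and 5 lower, beside 70.6% of all genes tested. The members called, 6, 8 and 8 of the 9, lay somewhat above these background shares. With only 9 genes this was not read as a result, and the description turns on the size and direction of each change. The 3 comparisons share their groups and are not independent of each other. Of all calls, 50.6%, 50.5% and 49.6% were in the higher direction in these 3 comparisons, and with total counts scaling 61.1%, 38.7% and 66.3%. With an assumed biological coefficient of variation of 0.4, the members called were Pgr between CiLC and MEF, Esr1, Pgr, Fkbp5 and Zbtb16 between LC and MEF, and Esr1, Fkbp5, Tsc22d3 and Zbtb16 between CiLC and LC.

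**Figure D1:**
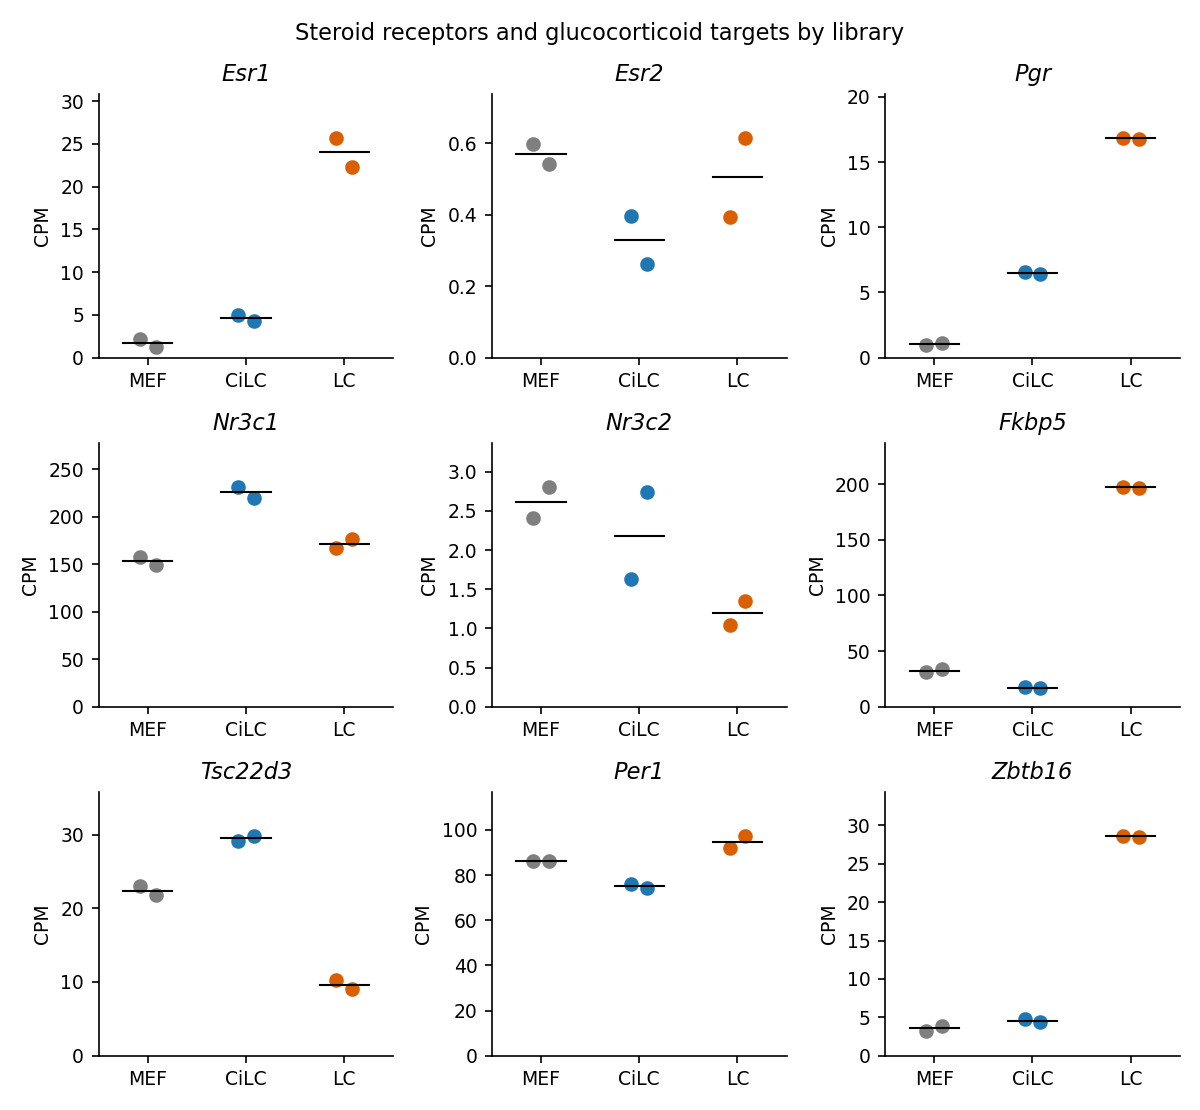
CPM of the 9 genes in each of the 6 libraries, with a panel and a linear axis from 0 for each gene. Points are libraries and bars are means of 2. Esr1, Pgr, Fkbp5 and Zbtb16 are highest in LC, and Tsc22d3 and Nr3c2 are lowest there.

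Esr1 (NCBI gene 13982), which binds estradiol, measured 2.15 and 1.30 CPM in MEF, 4.99 and 4.26 CPM in CiLC, and 25.7 and 22.3 CPM in LC. No library of a group overlapped with another group. It rose 2.68-fold in CiLC over MEF (log2 fold change 1.42 ± 0.23 SE, edgeR adjusted p = 7.01e-06), a call that an assumed biological coefficient of variation of 0.4 removed (adjusted p = 0.282). LC exceeded MEF by a log2 fold change of 3.79 ± 0.20 SE (edgeR adjusted p = 5.87e-16), and CiLC stayed below LC by 2.37 on the log2 scale, with a log2 fold change of -2.37 ± 0.14 SE (edgeR adjusted p = 1.06e-13).

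Pgr (18667), which binds progesterone, measured 0.997 and 1.10 CPM in MEF, 6.57 and 6.44 in CiLC, and 16.9 and 16.8 in LC. The groups were again apart, in the same order as for Esr1. Pgr rose 6.19-fold in CiLC over MEF (log2 fold change 2.63 ± 0.22 SE, edgeR adjusted p = 4.45e-11), and only 3.09% of all genes tested changed by as much in either direction. Of the 9 genes it was the single call between CiLC and MEF that held with an assumed coefficient of variation of 0.4. LC was higher still, with a log2 fold change of 4.0 ± 0.22 SE against MEF, and CiLC stayed below LC with -1.37 ± 0.11 SE (edgeR adjusted p = 1.19e-10). All 6 values of Pgr were fractional, as were those of Zbtb16 and 5 of Nr3c1, so part of their reads may have been shared with other genes. The summed Leydig and Sertoli cell markers had the same order of groups as Esr1 and Pgr. The 7 Leydig cell markers summed to 7.55 to 9.41 CPM in MEF, 144 to 148 in CiLC and 1081 to 1109 in LC, and 4 of them had this order singly (Star, Cyp11a1, Hsd3b1 and Nr5a1). Insl3 had 0 and 37.0 reads in the MEF libraries and 18.5 and 3.44 in CiLC, and was not called between them (edgeR adjusted p = 0.406). Lhcgr was at 0 in CiLC. The 6 Sertoli cell markers summed to 17.3 to 18.8, 35.2 to 37.9 and 301 to 303 CPM. By group mean, 5 of them had this order singly, with Fshr at 0 in MEF and CiLC. Between CiLC and MEF, however, Sox9 and Amh were not called (edgeR adjusted p = 0.0902 and 0.926). The peritubular and smooth muscle markers ran otherwise, with 1571 to 1649 CPM for MEF, 144 to 147 for CiLC and 954 to 968 for LC. The part of these cell types in the values of Esr1 and Pgr was not tested.

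Esr2 (13983), the estrogen receptor beta gene, had 5.14 to 11.4 estimated reads per library. Its level was 0.570 ± 0.0387 CPM (MEF), 0.328 ± 0.0949 (CiLC) and 0.505 ± 0.157 (LC). None of the 3 comparisons was called (edgeR adjusted p = 0.271, 0.814 and 0.359), and the log2 fold change of CiLC over MEF was -0.72 ± 0.55 SE, an interval that leaves room for a sizeable difference. All 6 of its values were fractional, as happens where reads are shared with another gene, so even its low level is uncertain.

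Nr3c1 (14815), the glucocorticoid receptor gene, measured 158 and 149 CPM in MEF, 232 and 219.5 in CiLC, and 167 and 177 in LC. CiLC was above every other library. Nr3c1 rose 1.47-fold in CiLC over MEF (log2 fold change 0.55 ± 0.05 SE, edgeR adjusted p = 2.06e-09) and was higher in CiLC than in LC (log2 fold change 0.40 ± 0.05 SE, edgeR adjusted p = 2.4e-07). A change of the first size or more was shared by 26% of all genes tested. LC and MEF are neighbours in this order: the log2 fold change of 0.16 ± 0.05 SE was called (edgeR adjusted p = 0.0083), but the call was lost with upper quartile scaling (0.315), with total counts (0.865), without MEF replicate 2 (0.0992) and without LC replicate 2 (0.101).

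Nr3c2 (110784), the mineralocorticoid receptor gene, measured 2.41 and 2.81 CPM in MEF, 1.63 and 2.74 in CiLC, and 1.04 and 1.35 in LC. The MEF and CiLC values overlapped, with a log2 fold change of -0.26 ± 0.27 SE (edgeR adjusted p = 0.443) that turned to 0.07 without CiLC replicate 1. LC was lower than MEF (log2 fold change -1.12 ± 0.31 SE, edgeR adjusted p = 0.00241). LC was also lower than CiLC (log2 fold change of CiLC over LC 0.86 ± 0.32 SE, edgeR adjusted p = 0.018), a call lost without CiLC replicate 2 (0.31), without LC replicate 1 (0.141) and with DESeq2 (0.123).

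The receptors were compared with each other as CPM per kilobase of exon, using GENCODE M21 exon lengths. Nr3c1 made up 96% to 96.1% of the sum over the 5 receptors in the MEF libraries, 94.4% to 94.7% in CiLC and 80.8% to 82.5% in LC. Esr1 made up 0.705% to 1.10% of that sum in MEF, 1.54% to 1.72% in CiLC and 8.78% to 10.5% in LC. Pgr went from 0.575% to 0.669% in MEF to 2.55% to 2.63% in CiLC and 7.45% to 7.77% in LC. With coding length in place of exon length, Nr3c1 made up 76.9% to 79.4% in LC and Esr1 13.2% to 15.7%, and Nr3c1 remained the largest share in all 6 libraries. In MEF, the next receptor by exon length was Nr3c2 (0.422 ± 0.0457 CPM per kb), above Esr1 (0.223 ± 0.0773), Esr2 (0.169 ± 0.0115) and Pgr (0.152 ± 0.0102). In LC the order after Nr3c1 was Esr1 (3.09 ± 0.319), Pgr (2.44 ± 0.0101), Nr3c2 (0.194 ± 0.0355) and Esr2 (0.15 ± 0.0466), the last pair within their spread.

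**Figure D2:**
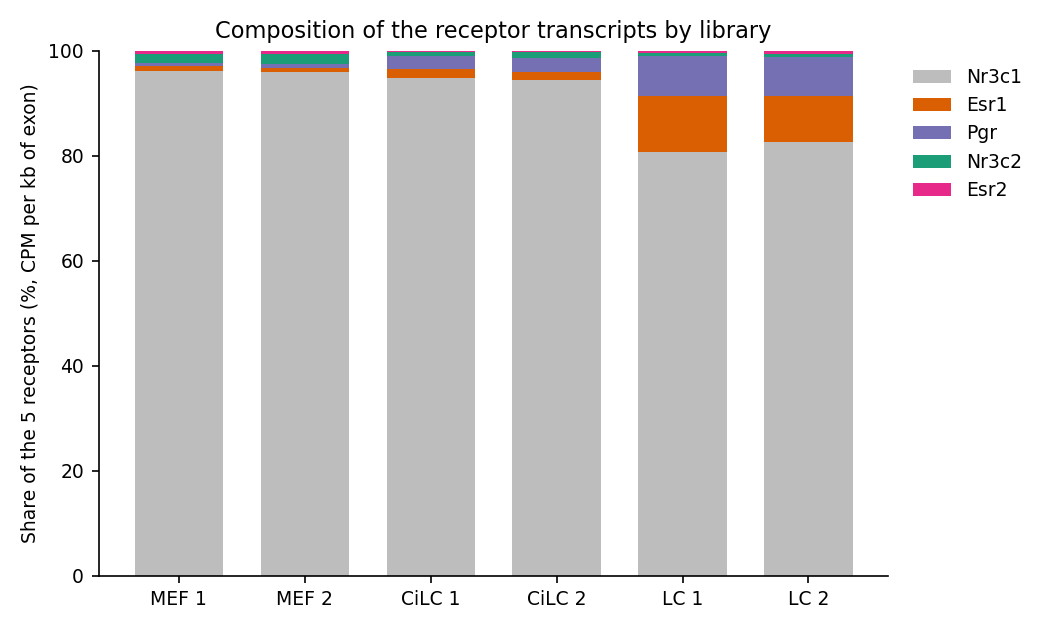
Share of each of the 5 receptor genes in their sum, as percent of CPM per kb of exon, in each of the 6 libraries (stacked bars from 0 to 100). Nr3c1 holds the largest share in every library, and the shares of Esr1 and Pgr are largest in the LC libraries.

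Fkbp5 (14229) encodes a co-chaperone of heat shock protein 90 that lowers the hormone affinity of the glucocorticoid receptor, and it is a widely used readout of receptor activity. It measured 30.9 and 33.9 CPM in MEF, 17.5 and 16.7 in CiLC, and 198 and 197 in LC. Every LC library was far above all others, and CiLC was the lowest group. Fkbp5 fell 1.90-fold in CiLC against MEF (log2 fold change -0.92 ± 0.08 SE, edgeR adjusted p = 3.82e-10), although Nr3c1 rose in the same comparison. It was 11.5-fold lower in CiLC than in LC (log2 fold change -3.53 ± 0.07 SE, edgeR adjusted p = 4.15e-23), a size reached by 6.07% of all genes tested. LC exceeded MEF with a log2 fold change of 2.61 ± 0.06 SE (edgeR adjusted p = 1.38e-21). Endothelial markers, 5 in all, summed to 23.9 to 24.6 CPM for MEF, 7.86 to 7.89 for CiLC and 68.7 to 77 for LC, the order of Fkbp5, but their members differed. Kdr and Emcn were highest in MEF, Cdh5 was higher in CiLC than in MEF and highest in LC, Tie1 was at 0 in MEF, and Pecam1 alone had the order of the sum. The part of endothelial RNA in the Fkbp5 values was not tested.

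Zbtb16 (235320), a zinc finger repressor also called PLZF, measured 3.26 and 3.87 CPM in MEF, 4.75 and 4.33 in CiLC, and 28.7 and 28.5 in LC. LC stood alone, with a log2 fold change of 3.01 ± 0.13 SE against MEF (edgeR adjusted p = 9.7e-17), and CiLC was below LC with -2.66 ± 0.12 SE (edgeR adjusted p = 4.21e-16). CiLC and MEF, the neighbours in this order, were not called apart (log2 fold change 0.35 ± 0.16 SE, edgeR adjusted p = 0.0721), although with total counts scaling the adjusted p was 0.0319. The 9 germ cell and spermatogonial markers summed to 2.23 to 3.61 CPM in LC, against 106 to 107 in MEF and 89.7 to 95.8 in CiLC, where Gfra1 alone gave 92.7 ± 1.02 and 74.5 ± 4.96 CPM. In MEF and CiLC this sum was mostly Gfra1 and Id4, and the other 7 markers were low and did not share its order. Sall4 (3 and 1 reads) and Lin28a (2 and 2 reads) had reads in LC and were at 0 in MEF and CiLC, and Dazl was highest in LC, at 0.41 CPM. Nanos2 was at 0 in LC and CiLC. The part of germ cell RNA in the Zbtb16 values was not tested.

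Tsc22d3 (14605), which encodes the anti-inflammatory leucine zipper protein GILZ, ran the other way. It measured 23.0 and 21.8 CPM in MEF, 29.1 and 29.9 in CiLC, and 10.2 and 9.01 in LC, with no overlap between groups. It rose 1.32-fold in CiLC over MEF (log2 fold change 0.40 ± 0.08 SE, edgeR adjusted p = 0.000115). It was lower in LC than in MEF (log2 fold change -1.22 ± 0.10 SE, edgeR adjusted p = 6.89e-11) and 3.07-fold higher in CiLC than in LC (log2 fold change 1.62 ± 0.10 SE, edgeR adjusted p = 1.6e-13). Summed, the 8 macrophage markers had the same order of groups, CiLC above MEF above LC, but much of the sum was Lyz2. Lyz2 measured 2660 ± 39.3 CPM (MEF), 7571 ± 122 (CiLC) and 2554 ± 218 (LC). Its MEF and LC libraries overlapped and were not called apart (edgeR adjusted p = 0.329). Csf1r, Cd68, Cx3cr1 and C1qb were highest in MEF and Marco in LC, and Adgre1 was higher in LC than in MEF. Of the single markers, only Ptprc had the order of Tsc22d3 with no overlap between groups. Ptprc, the pan-leukocyte gene, was at 161 ± 6.49 CPM (MEF), 198 ± 3.54 (CiLC) and 68.4 ± 2.63 (LC). Of the 8, 4 were higher and 3 lower in CiLC against MEF, 2 higher and 5 lower in LC than in MEF, and 7 higher and 1 lower in CiLC than in LC. The part of macrophage RNA in the Tsc22d3 values was not tested.

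Per1 (18626), a repressor of the circadian clock, measured 86.4 and 86.1 CPM in MEF, 76.1 and 74.3 in CiLC, and 92 and 97.5 in LC. The groups did not overlap, but the differences were small. Per1 fell 1.15-fold in CiLC against MEF (log2 fold change -0.20 ± 0.05 SE, edgeR adjusted p = 0.0026), a size reached by 58.1% of all genes tested, and setting the coefficient of variation to 0.1 removed the call (0.357). CiLC was also lower than LC (log2 fold change -0.33 ± 0.05 SE, edgeR adjusted p = 4.97e-06). Per1 in LC against MEF (log2 fold change 0.14 ± 0.05 SE, edgeR adjusted p = 0.0222) turned to -0.01 with total counts scaling and was lost in 8 of 16 alternatives.

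**Figure D3:**
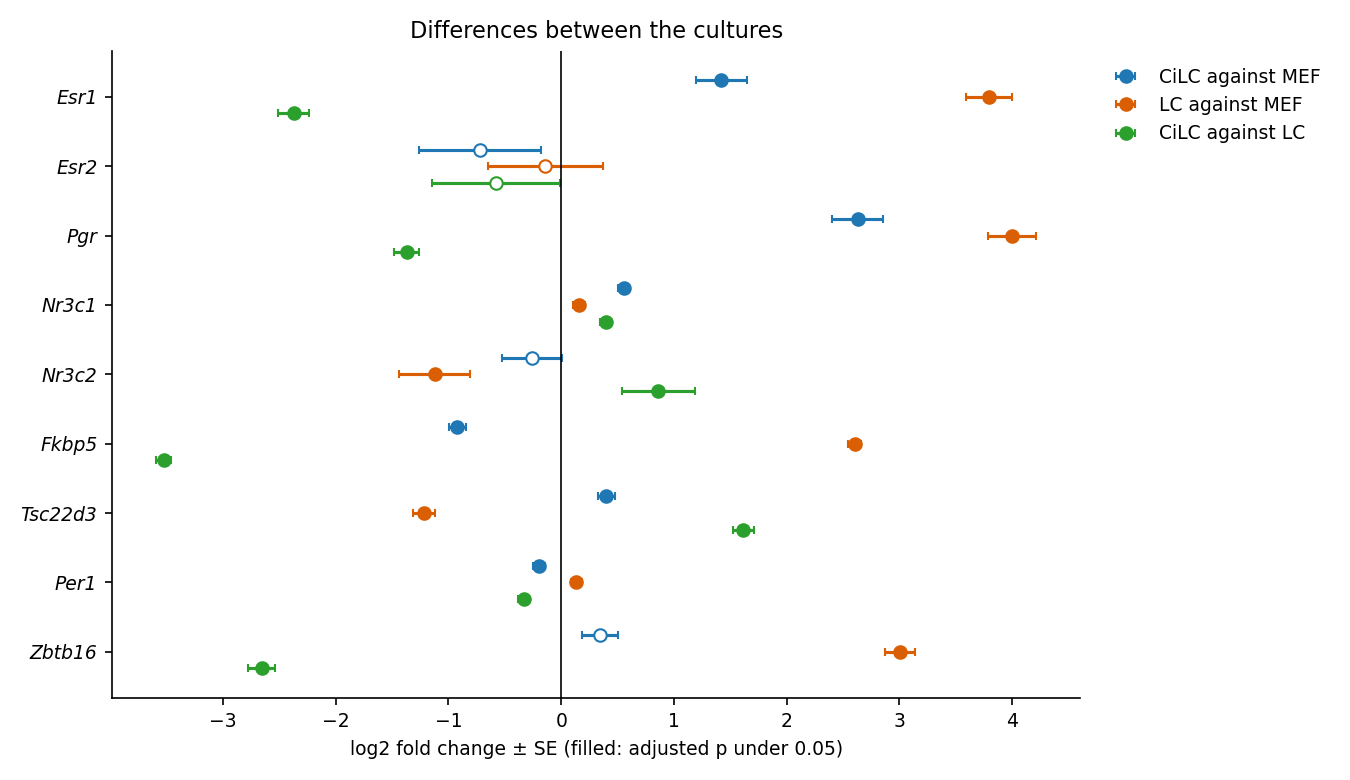
Log2 fold changes of the 9 genes in the 3 comparisons, with standard errors as bars. Filled points passed an adjusted p of 0.05 and open points did not. Fkbp5 and Tsc22d3 lie on opposite sides of 0 in each comparison.

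A longer list of genes that glucocorticoids are known to induce was read beside the 4 targets. Counts for this list and those below stand beside the shares called over all genes tested. These were 51.6% in CiLC against MEF, 70.7% in LC against MEF and 70.6% in CiLC against LC. Of its 25 tested members, 19 were higher in LC than in MEF and 4 lower, at a median log2 fold change of 1.12 beside -0.01 over all genes tested. Angptl4, an inhibitor of lipoprotein lipase, went from 6.40 ± 0.300 CPM in MEF to 320 ± 12.1 in LC. The metallothionein Mt2 went from 5.93 ± 0.288 to 323 ± 7.42 CPM, the lipocalin Lcn2 from 0.131 ± 0.0376 to 346 ± 15.9 CPM, and Errfi1, a feedback inhibitor of EGF receptors, from 50.3 ± 0.659 to 1094 ± 5.17 CPM. Anxa1, Cavin2, Cdkn1c and Rgs2 were the 4 lower genes, of which Anxa1, Cavin2 and Rgs2 were chosen for naming after their values were seen. The cell cycle inhibitor Cdkn1c was at 35.8 ± 0.253 CPM (MEF), 48.0 ± 0.657 (CiLC) and 1.72 ± 0.0229 (LC). Several of the genes that rose, among them Lcn2 and Mt2, are also induced by inflammatory signals.

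In CiLC against MEF, 14 of the 25 were higher, 4 lower and 7 not called, with a median log2 fold change of 0.37. Klf15, a transcription factor that glucocorticoids induce in many tissues, went from 1.31 ± 0.0673 CPM in MEF to 4.44 ± 0.119 in CiLC and 9.49 ± 0.931 in LC. Angptl4 reached 44.2 ± 1.04 CPM and Lcn2 6.25 ± 0.303 CPM in CiLC. In CiLC against LC, 4 of the 25 were higher and 19 lower, at a median log2 fold change of -0.71. With an assumed coefficient of variation of 0.4, 3 of the 25 were called between CiLC and MEF, and 13 between LC and MEF. Outside this list, Fkbp5 fell in CiLC against MEF and Tsc22d3 in LC against MEF, and of the 4 targets 1 was higher and 2 lower in the former comparison and 3 higher and 1 lower in the latter.

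**Figure D4:**
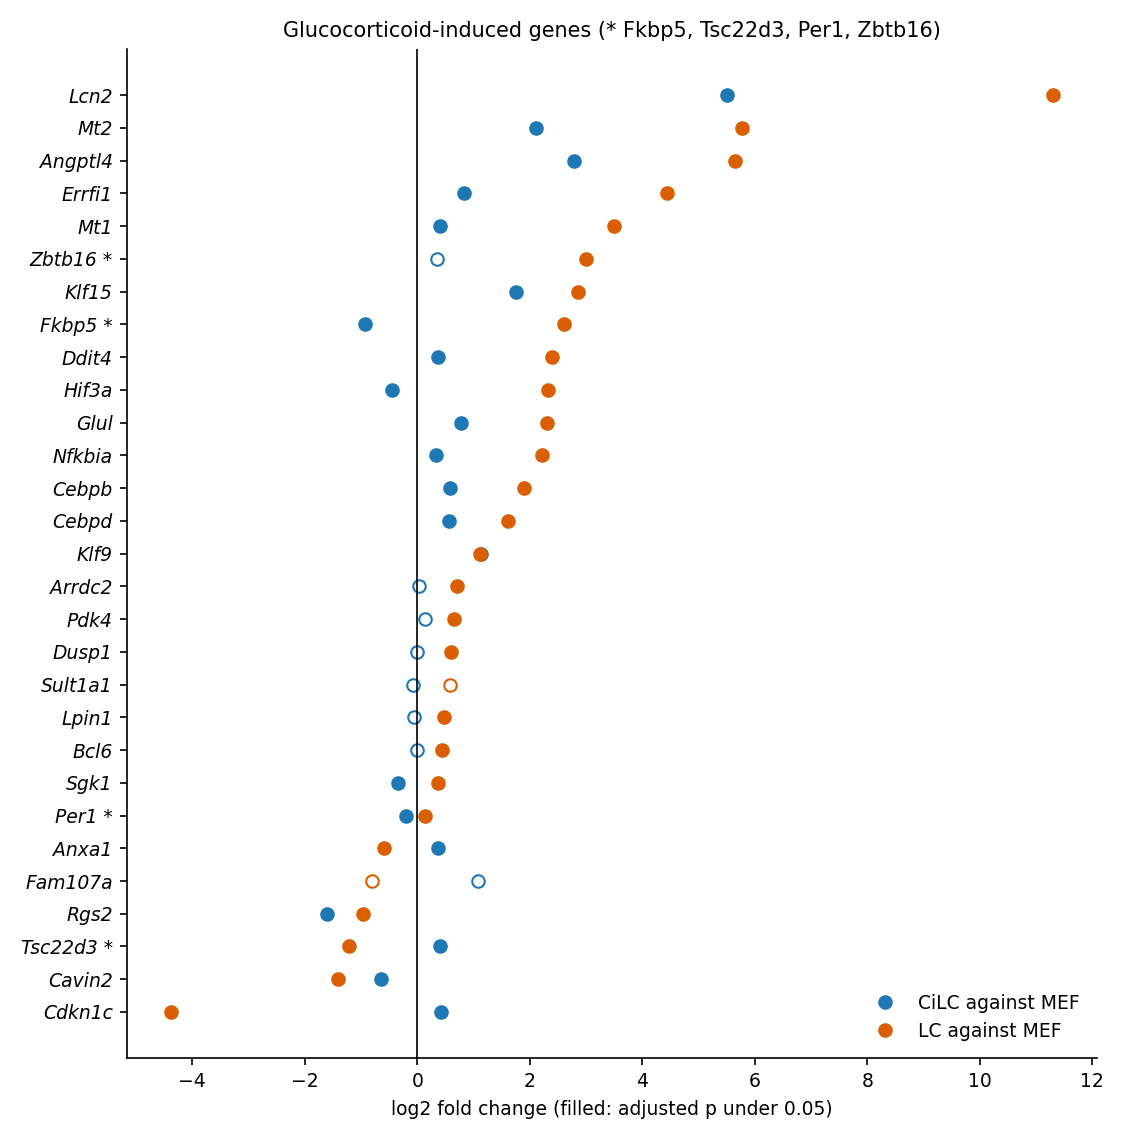
Log2 fold changes against MEF of the 25 tested genes of the longer glucocorticoid list and of the 4 targets (asterisks), for CiLC and for LC, ordered by the LC value. Filled points passed an adjusted p of 0.05. Most genes lie right of 0 in LC, with Tsc22d3, Cdkn1c, Cavin2, Rgs2, Anxa1 and Fam107a (open) on the left.

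Genes that glucocorticoids are known to repress were read in the same way. Of 16 inflammatory genes of this kind, all tested, 14 were higher in LC than in MEF and 2 lower (median log2 fold change 2.40). Against MEF, 10 were higher and 4 lower in CiLC (median 0.84), and against LC 2 were higher and 14 lower in CiLC (median -1.86). The part of glucocorticoids in these differences was not tested. The neutrophil attractant Cxcl5 went from 2.11 ± 0.262 CPM in MEF to 53.4 ± 1.95 in CiLC and 1180 ± 47.3 in LC. Il6, an inflammatory cytokine, was at 2.19 ± 0.358, 2.64 ± 0.366 and 33.5 ± 1.27 CPM. The 2 genes lower in LC than in MEF were Mmp13, a collagenase, and Tnf, the latter named after its values were seen. Mmp13 measured 10.6 ± 0.238 CPM (MEF), 115 ± 2.37 (CiLC) and 7.30 ± 0.914 (LC).

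Enzymes that set the local supply of active steroid differed strongly. Hsd11b1, which regenerates active glucocorticoid inside the cell, measured 0.105 ± 0.0744 CPM (MEF), 4.12 ± 0.872 (CiLC) and 27.7 ± 1.77 (LC). H6pd, which supplies the NADPH that Hsd11b1 needs, was at 131 ± 1.85 CPM (MEF), 173 ± 3.08 (CiLC) and 909 ± 15.4 (LC). Cyp7b1, a hydroxylase of steroids and oxysterols, measured 9.66 ± 0.0485, 40.8 ± 2.29 and 138 ± 2 CPM in the same order. These 3 genes share the order of Esr1 and Pgr, with CiLC between MEF and LC. Akr1c14, which reduces dihydrotestosterone and other ketosteroids, was instead highest in CiLC (35.4 ± 1.60 CPM, against 9.93 ± 0.885 in LC). Of 13 tested genes of steroid activation and inactivation, out of 17 listed, 8 were higher and 1 lower in CiLC against MEF (median log2 fold change 0.28), 7 higher and 3 lower in LC than in MEF (0.79), and 5 higher and 6 lower in CiLC than in LC (0.03).

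Chaperones hold the receptors ready for hormone. Of 14 genes, 9 were higher and 2 lower in LC than in MEF (median log2 fold change 0.23), so that the share called was near the 70.7% of all genes tested, and with total counts scaling 6 were higher and 3 lower. Stip1, which links heat shock proteins 70 and 90, measured 127 ± 0.563 CPM (MEF), 132 ± 0.824 (CiLC) and 323 ± 8.65 (LC). Hsp90aa1, the inducible heat shock protein 90, measured 190 ± 13.9, 186 ± 7.64 and 323 ± 0.555 CPM. Between CiLC and MEF, 2 were higher, 2 lower and 10 not called, and with an assumed coefficient of variation of 0.1 none was. Between CiLC and LC, 3 were higher and 9 lower, which became 5 and 5 with total counts scaling. With an assumed coefficient of variation of 0.4, no gene of the receptor chaperones was called in any of the 3 comparisons.

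Coregulators moved in both directions. Over all genes tested, the shares called were 51.6% (CiLC against MEF), 70.7% (LC against MEF) and 70.6% (CiLC against LC). Of 13 genes, 2 were higher and 6 lower in CiLC against MEF, at a median log2 fold change of -0.02, and with total counts scaling 5 were higher and 4 lower. In LC against MEF, 4 were higher and 6 lower (median 0.01), and with total counts scaling 3 and 8. In CiLC against LC the counts were again 4 and 6 (median -0.02), but with total counts scaling they turned to 7 and 1. The coactivator Ncoa3 measured 224 ± 5.45 CPM (MEF), 138 ± 4.18 (CiLC) and 95.7 ± 4.99 (LC). Nrip1, a corepressor of estrogen receptors that estrogen also induces, had the opposite order, with 54.3 ± 1.09, 68.2 ± 0.0960 and 116 ± 0.249 CPM.

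Target genes of estrogen and progesterone gave no common direction. Beside them, 51.6% (CiLC against MEF), 70.7% (LC against MEF) and 70.6% (CiLC against LC) of all genes tested were called. Of 13 tested genes out of 18 listed, 6 were higher and 3 lower in CiLC against MEF (median log2 fold change 0.19), and 7 were higher and 4 lower in LC than in MEF (0.24). In CiLC against LC, 4 were higher and 6 lower (-0.33). Greb1, an estrogen receptor cofactor and target, measured 2.45 ± 0.352 CPM (MEF), 4.12 ± 0.296 (CiLC) and 138 ± 1.90 (LC), the order of Esr1. C3 had this order too, at 97.8 ± 8.45 CPM (MEF), 1434 ± 34.0 (CiLC) and 11921 ± 604 (LC). It had the largest change of the list against MEF in both CiLC and LC (log2 fold change 3.87 and 6.93). Hand2, which progesterone induces in uterine stroma, was at 9.22 ± 0.138, 17.2 ± 1.29 and 0.234 ± 0.00250 CPM, and so was lowest where Pgr was highest. The bone factor Tnfsf11, a progesterone target of the mammary gland, measured 2.51 ± 0.530 CPM (MEF), 15 ± 0.0728 (CiLC) and 0.467 ± 0.00499 (LC).

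Estrogen related receptors, membrane steroid receptors and channel genes were counted as well. The shares of all genes tested that were called were 51.6% (CiLC against MEF), 70.7% (LC against MEF) and 70.6% (CiLC against LC). Of 8 tested genes of the estrogen related and membrane steroid receptors, out of 10 listed, 3 were higher and 2 lower in CiLC against MEF (median log2 fold change -0.02), 5 higher and 2 lower in LC than in MEF (0.57), and 2 higher and 4 lower in CiLC than in LC (-0.21). The membrane estrogen receptor gene Gper1 ran against Esr1, at 3.87 ± 0.758 CPM for MEF, 1.22 ± 0.362 for CiLC and 2 and 0 reads in the LC libraries. Pgrmc1, a membrane heme protein that associates with progesterone binding, measured 85.5 ± 5.78, 96.2 ± 2.79 and 200.2 ± 1.83 CPM. Of 4 tested genes of channels and pumps that mineralocorticoids induce, out of 6 listed, 3 were higher and 1 lower in LC than in MEF (median 0.92), 1 was higher and 1 lower in CiLC against MEF (-0.13), and 1 was higher and 3 lower in CiLC than in LC (-0.81). The sodium pump subunit Atp1b1 measured 32.8 ± 1.95 CPM (MEF), 54.6 ± 2.42 (CiLC) and 79.3 ± 4.82 (LC), whereas Nr3c2 was lowest in LC. Scnn1a, the 1 gene of this list lower in LC than in MEF, was lowest in LC as Nr3c2 was. It measured 2.09 ± 0.306 CPM (MEF), 1.80 ± 0.0315 (CiLC) and 0.875 ± 0.156 (LC), with MEF and CiLC not called apart (edgeR adjusted p = 0.536).

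Because Per1 answers to the clock and to cyclic AMP, both lists were counted. Over all genes tested, 51.6% (CiLC against MEF), 70.7% (LC against MEF) and 70.6% (CiLC against LC) were called. Of 18 clock genes, 10 were higher and 4 lower in CiLC against MEF (median log2 fold change 0.26), 12 higher and 5 lower in LC than in MEF (0.50), and 7 higher and 7 lower in CiLC than in LC (0.09). The clock repressor Bhlhe40 measured 71.7 ± 1.38 CPM (MEF), 42.8 ± 0.326 (CiLC) and 237 ± 0.655 (LC). Nfil3, a repressor of clock output genes, had the same order, with 36.6 ± 2.59, 25.7 ± 1.52 and 102 ± 1.34 CPM. Bhlhe40 and Nfil3 shared with Fkbp5 the order LC above MEF above CiLC, which Per1 shared with the scaling used here but not with total counts. Of 12 genes that cyclic AMP induces, 5 were higher and 6 lower in CiLC against MEF (median -0.19), 3 higher and 4 lower in LC than in MEF (-0.09), and 4 higher and 5 lower in CiLC than in LC (-0.00). The early response genes Fosb (818 ± 19.8 CPM in MEF and 184 ± 9.42 in CiLC) and Nr4a1 (250.5 ± 11.8 and 95.8 ± 0.411) fell in CiLC, and Pde4b, a cyclic AMP phosphodiesterase, was highest in CiLC (101 ± 2.55 CPM, against 38.4 ± 2.10 in LC).

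For each member, the genes with the nearest profile over the 6 libraries were found by Euclidean distance of log2 CPM, each profile centred on its mean, among 11982 or 11983 genes of at least 5 CPM in a group. The nearest to Fkbp5 were Bace2 (distance 0.19), Fstl3 (0.31) and Tshz2 (0.32), all with about the same steps between groups: Bace2 measured 5.43 CPM (MEF), 3.12 (CiLC) and 32.8 (LC). The nearest to Zbtb16 were Pfkl (0.19), Atp1b2 (0.24) and Msmo1 (0.24). The nearest to Tsc22d3 were S100a4 (0.11), Gsn (0.13) and the leukocyte complement receptor gene C5ar1 (0.14), which measured 155 CPM (MEF), 192 (CiLC) and 63.0 (LC). For Esr1 they were A2m (0.27), Gria4 (0.41) and Ces2g (0.48), and for Pgr C1rb (0.30), Kitl (0.42) and Mgst1 (0.43). The nearest to Nr3c1 was Zfp983 (0.06) and the nearest to Per1 was Tax1bp3 (0.04), while Nr3c2 (Apba1, 0.41) and Esr2 (Arnt2, 0.27) were read from few reads. With 3 groups of 2 libraries, such likeness describes 3 group levels and no more.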

How the data were processed

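RNA-seq of 6 libraries was used, 2 each of MEF, CiLC and LC. The authors deposited estimated counts of reads per NCBI gene number, with 1 table per library and no scaling for library size per the file headers, and these need not be whole (32.4% to 32.8% of values were fractional). The submitters' processing notes name HISAT and the build mm9; which tool, annotation and strand rule produced the counts is not given in the sources used here. Counts were rounded to whole numbers. Gene numbers were matched to symbols (18179 matched, 126 not, the latter holding at most 0.259% of reads).

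Genes were kept by filterByExpr of edgeR 4.0.16 (minimum count 10, minimum total 15), which removed 3724, and libraries were scaled by TMM. The quasi-likelihood test of edgeR was fitted on all 6 libraries with group as the only term, and two-sided p-values were adjusted by Benjamini-Hochberg across all 14581 genes, with a call at an adjusted p under 0.05. Log2 fold changes used a prior count of 0.125. Libraries of a group differed by more than counting noise (chi-square per degree of freedom 1.80 to 2.94), and the common biological coefficient of variation was 3.16%, low enough that spreads of 0.1 and 0.4 were also assumed for every gene. The test was checked on simulated data with a spread of about the 3.16% estimated here. That check cannot tell how the test performs where separate cultures or animals vary more.

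Members and gene lists were chosen with earlier results of these data known. Named are all 9 members, and of each list up to 4 called genes per comparison with the largest absolute log2 fold change and a mean of at least 1 CPM in a group. The 3 nearest profiles per member came from genes of at least 5 CPM in a group. Marker genes are named where they bear on a member. Per-length levels used GENCODE M21 exons, and promoter sequences came from RefSeq, build GRCm38.p6. Alternatives were other filters (none, or 1 CPM in 2 libraries), other scalings, DESeq2 1.42.0, only the 4 libraries compared, a replicate block, the assumed spreads and leaving out each library.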

Additional observations from a re-analysis of the deposited data

How the results depend on the processing

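Over 16 alternatives, the log2 fold changes of the members kept their direction and their side of the threshold in 395 cases, lost the call in 28, gained it in 1 and reversed in 3. The reversals were Per1 in LC against MEF with total counts scaling (-0.0123), Nr3c2 in CiLC against MEF without CiLC replicate 1 (0.0652) and Esr2 in LC against MEF without LC replicate 1 (0.0995), none of them called after the change. Leaving out each library gave -0.68 to 0.0652 for that Nr3c2 value and -0.426 to 0.0995 for that Esr2 value. Esr2 fell under the filter of 1 CPM in 2 libraries, which gave it no value. Pathway genes named by the rule lost a call in 85 of their alternatives, and none reversed.

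The assumed spread mattered most. With a coefficient of variation of 0.1, CiLC against MEF had 2064 genes higher and 2141 lower, in place of 3808 and 3721. With 0.4 it had 407 and 268 and 1 member called, LC against MEF had 1450 and 1058 and 4 members, and CiLC against LC had 937 and 1314 and 4 members. The larger assumed spread is the construction of these alternatives. Without 1 library each, CiLC against MEF ranged from 3030 to 3764 genes higher, 3097 to 3680 lower and 6 to 6 members. LC against MEF ranged from 4752 to 5149, 4659 to 5165 and 6 to 8, and CiLC against LC from 4594 to 5240, 4739 to 5267 and 7 to 8. A lone library of a group was assumed to vary like the other groups.

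Scaling moved the median of all genes in LC against MEF to -0.11 (upper quartile) and -0.16 (total counts), and in CiLC against LC to 0.22 (total counts). The cause was not tested. Depth limits Esr2, with 5.14 to 11.4 reads, most.

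Deviations of same-numbered libraries correlated at 0.104 (CiLC and MEF), -0.0843 (CiLC and LC) and -0.00393 (MEF and LC). With 2 libraries a group, these values cannot settle whether the replicate numbers mark a shared culture, animal or day. With the replicate block, CiLC against MEF had 3791 genes higher and 3714 lower, LC against MEF 5187 and 5107, and CiLC against LC 5100 and 5190, with 6, 8 and 8 members called as without it.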
